A study of Rattus norvegicus with 24 samples.

Results

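The ovaries of intact female rats given dihydrotestosterone (DHT) were compared with those of females given vehicle. The comparison covered 6 of the 24 arrays of the series, chosen by their tissue label: 3 ovary DHT arrays and 3 ovary vehicle arrays. The study profiled RNA of ovary, prostate, skin and forebrain on one-colour Agilent rat arrays, in which each sample is labelled with Cy3 and hybridised alone. Per the labels, the ovary animals were intact Sprague-Dawley females of 12 weeks. The treated group received DHT at 10 mg/kg in 1 intraperitoneal injection, the control group received the vehicle, and ovaries of both groups were taken 16 h later. Both groups kept their own ovarian androgens and estrogens, since the labels give the animals as intact. A design text given for all 4 tissues names castrated males as the source, which goes against the ovary labels, and the labels were followed. That text calls the 3 samples of a group biological replicates, but no label says in words that they came from separate animals. The p-values therefore measure the spread between these samples, which may be technical in part. The labels used here give no stage of the oestrous cycle.

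In the ovary, theca cells make androgens from cholesterol under luteinizing hormone, and granulosa cells convert them to estrogens with aromatase under follicle-stimulating hormone. Androgens are also known to act on follicle growth themselves, before aromatization. DHT is a potent androgen and is not a substrate of aromatase, which is why it is used to separate androgen from estrogen action.

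Star and Cyp11a1, which bring cholesterol into the mitochondrion and cut its side chain, marked the tissue as labelled. Relative to the 75th percentile of each array, Star had a log2 level of 6.36 to 6.9 on the 6 ovary arrays and of at most -2.95 on any array of the other tissues. Cyp11a1 lay between 5.7 and 6.24 in ovary and at most at -4.18 elsewhere. The oocyte genes Gdf9 and Zp2, the thecal gene Insl3 and the inhibin subunit gene Inha were also far above their levels in prostate, skin and forebrain. None of the 7 neuronal and none of the 5 prostate control genes on the array was well above background on all 6 ovary arrays. Adipocyte genes were present, with a mean log2 level of 1.12 to 2.06 for 10 genes, and so were 6 genes of oviduct and ciliated epithelium (-1.97 to -0.19). RNA came from bulk ovary tissue, so fewer cells of a type and less RNA per cell cannot be told apart.

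The 6 arrays did not have the same range of signals. On vehicle arrays 1 and 3 the interquartile range of the log2 signal was 3.78 and 3.2, and 96.5% and 97.0% of probes were well above background. Vehicle array 2 had an interquartile range of 6.16 and 70.5% of probes above background, and the 3 DHT arrays had 6.01 to 6.43 and 61.8% to 78.5%. The dim end of vehicle arrays 1 and 3 was thus compressed upwards, while vehicle array 2 was like the DHT arrays. After quantile normalization, which gives all arrays 1 distribution, vehicle array 2 still correlated with the DHT arrays at 0.979 to 0.99 over probes, vehicle array 1 at 0.954 to 0.957 and vehicle array 3 at 0.933 to 0.946. Each ovary array lay on a slide of its own, so slide and array cannot be told apart. No slide of the series held both vehicle and DHT samples, so a difference between slides and a difference with DHT cannot be told apart either. Levels below are log2 of the quantile-normalized signal, given in the order vehicle arrays 1, 2 and 3, then DHT arrays 1, 2 and 3. Levels of different genes are not compared, because probes differ in brightness for the same amount of RNA.

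**Figure D1:**
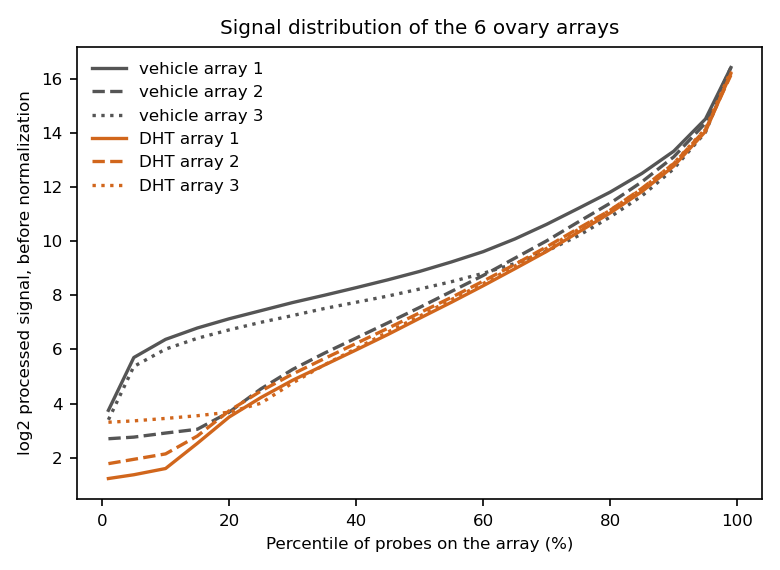
The log2 processed signal before normalization (y axis) at each percentile of probes (x axis) for the 3 vehicle arrays (grey) and 3 DHT arrays (orange) of ovary. Below the median, vehicle arrays 1 and 3 lie above the other 4 arrays, and the 6 lines come together at the bright end.

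No gene passed the test for a difference between DHT and vehicle ovaries. Of 23465 genes that were well above background on all 6 arrays, 0 had an adjusted p under 0.05 in limma (percent called 0.0%), and the lowest adjusted p was 0.795. At an unadjusted p under 0.05 there were 1320 genes, 983 higher and 337 lower with DHT. The groups did not overlap in 2442 genes (10.4%), with all DHT arrays above all vehicle arrays in 1698 (7.24%) and below them in 744 (3.17%). The difference of the means was above 0 in 62.0% of genes and below 0 in 38.0%. The 3 DHT arrays all lay above vehicle array 2, with a positive difference of the group means, in 4911 genes (20.9%), and all lay below it, with a negative difference, in 2745 genes (11.7%). These counts were 4214 and 3482 with rank scaling, where an excess of higher genes remained but was smaller. They were 3900 and 3817 with 75th-percentile scaling and 3903 and 3961 with cyclic loess, about even. With vehicle array 2 left out, 1039 genes passed as higher and 244 as lower, so the array that decided the count was the vehicle array of ordinary range. Lower genes made up 25.5% of those 1320, whereas at the same limit scaling to the 75th percentile gave 127 higher and 1561 lower.

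Most large differences from the vehicle group were not differences from vehicle array 2. The difference of the group means was at least 2-fold upwards in 1497 genes (6.38%) and downwards in 297 genes (1.27%). Against vehicle array 2 alone, 149 genes (0.635%) were at least 2-fold higher and 226 (0.963%) at least 2-fold lower. Of the 1497 genes, 48 (3.21%, or 0.205% of all genes) were also at least 2-fold above vehicle array 2, and of the 297, 41 (13.8%, or 0.175% of all genes) were at least 2-fold below it. With separated groups as a further condition, 30 genes (0.128%) were higher and 28 (0.119%) lower. When the genes were divided into 3 equal groups by brightness, 1421 of the 1497 belonged to the dimmest group, with mean log2 levels of 5.18 to 8.53, and 7 to the brightest. In the dimmest group the median gene lay 0.44 above vehicle array 1, 0.05 above vehicle array 2 and 0.51 above vehicle array 3, on the log2 scale. In the brightest group these medians were 0.07, 0.02 and 0.02. For this reason the difference from vehicle array 2 is given beside the difference from all vehicle arrays for the genes with the largest differences and for several others.

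The 24 genes described first are the 12 largest differences in each direction that separated the groups on every array, kept their sign under rank and 75th-percentile scaling, and were large against vehicle array 2 too. They were chosen for these values, which are a description. Of 6196 genes with a symbol, 548 separated the groups, and 469 of these kept the sign under both scalings (267 higher, 202 lower). All 24 had an adjusted p of 0.795 (limma). The 12 higher genes were 2.03-fold to 6.09-fold above the vehicle group and 1.98-fold to 3.0-fold above vehicle array 2. The 12 lower genes were 1.98-fold to 4.15-fold below the vehicle group and 1.9-fold to 3.34-fold below vehicle array 2. Dim genes were frequent, as 9 of the 12 higher and 6 of the 12 lower genes belonged to the dimmest of the 3 groups.

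**Figure D2:**
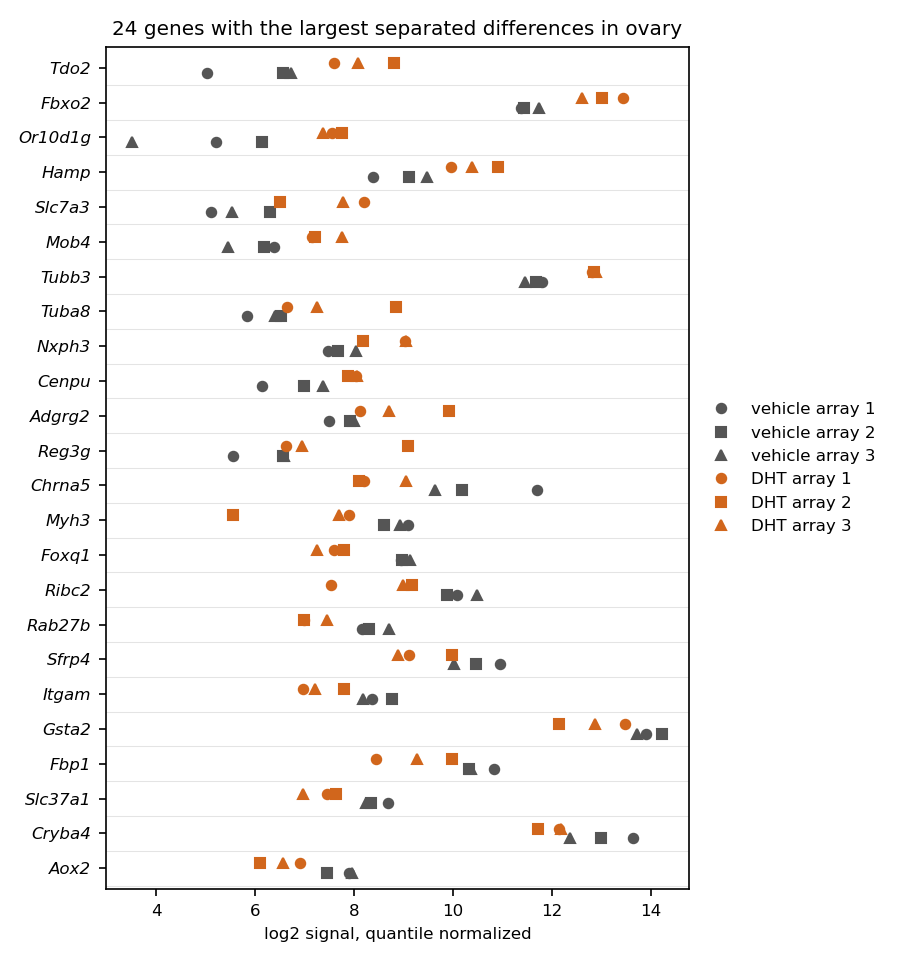
The quantile-normalized log2 signal (x axis) of the 24 genes with the largest differences that separated the groups (y axis), with 1 point for each of 3 vehicle arrays (grey) and 3 DHT arrays (orange). In every gene all orange points lie on the same side of all grey points, which is how the genes were chosen, and the arrays of a group are closest together in Tubb3 and Foxq1.

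Among the higher genes, Tubb3, which encodes the class III beta-tubulin known from neurons, had the smallest spread. Its levels were 11.79, 11.68 and 11.46 on the vehicle arrays and 12.81, 12.85 and 12.88 on the DHT arrays. The groups did not overlap, and the lowest DHT array lay more than 1 log2 unit above the highest vehicle array. The difference was 1.21 ± 0.19 (SE), or 2.31-fold, and it was 1.17 against vehicle array 2. Fbxo2, which encodes the subunit of a ubiquitin ligase that recognises glycoproteins, was measured at 11.38, 11.43 and 11.74 with vehicle and at 13.43, 13.0 and 12.61 with DHT. The 3 vehicle arrays were close together, and the DHT arrays spread more widely above them. Its difference was 1.49 ± 0.27 (2.81-fold), and 1.58 against vehicle array 2. Tubb3 and Fbxo2 were the higher genes that belonged to the brightest of the 3 groups.

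Hamp, which encodes the iron hormone hepcidin, had levels of 8.38, 9.12 and 9.47 with vehicle and 9.95, 10.90 and 10.38 with DHT. The gap between the groups was small beside their spread, and the difference was 1.42 ± 0.37, and 1.29 against vehicle array 2. Tdo2, which encodes the first enzyme of tryptophan breakdown to kynurenine and is known from decidua and liver, read 5.04, 6.57 and 6.73 with vehicle and 7.59, 8.80 and 8.08 with DHT. All 3 DHT arrays were above all vehicle arrays, on average by 1.58 above vehicle array 2, and the difference of the means was 2.04 ± 0.53 (4.12-fold). The odorant receptor gene Or10d1g had the largest difference, 2.61 ± 0.63, from levels of 5.21, 6.15 and 3.52 to 7.56, 7.76 and 7.37. Vehicle array 3 was lowest there, and against vehicle array 2 the difference was 1.42.

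Slc7a3, which encodes a cationic amino acid transporter, read 5.12, 6.31 and 5.53 with vehicle and 8.21, 6.50 and 7.78 with DHT. DHT array 2 was just above vehicle array 2, and the difference was 1.85 ± 0.51, and 1.19 against vehicle array 2. Mob4, a member of the striatin phosphatase and kinase complex, read 6.38, 6.19 and 5.45 with vehicle and 7.16, 7.21 and 7.76 with DHT (1.37 ± 0.32, and 1.19 against vehicle array 2). Further higher genes encoded an alpha-tubulin (Tuba8, 1.33 ± 0.57, and 1.06 against vehicle array 2) and a centromere protein (Cenpu, 1.16 ± 0.34 and 1.02). Nxph3, which encodes a secreted ligand of neurexins, differed by 1.02 ± 0.31 from the vehicle group and by 1.07 from vehicle array 2. Adgrg2, an adhesion receptor gene known from the male tract, differed by 1.11 ± 0.46 (1.0 against vehicle array 2), and the antibacterial lectin gene Reg3g by 1.32 ± 0.68 (0.99). In Tuba8, Adgrg2 and Reg3g the difference came largely from DHT array 2, which read 8.85, 9.92 and 9.09 while DHT array 1 read 6.64, 8.12 and 6.62, just above the highest vehicle array. Without DHT array 2 the differences were 0.66 for Tuba8, 0.59 for Adgrg2 and 0.54 for Reg3g.

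Among the lower genes, Foxq1, which encodes a forkhead transcription factor, had the smallest spread. It read 8.95, 8.96 and 9.13 on the vehicle arrays and 7.59, 7.80 and 7.26 on the DHT arrays. The vehicle arrays were nearly level, vehicle array 2 included, and the DHT arrays were more than 1 log2 unit below. The difference was -1.47 ± 0.22, or 2.76-fold lower with DHT, and -1.41 against vehicle array 2. Its adjusted p in limma was 0.795 on the ovary arrays alone. Without vehicle array 2 it was 0.0317 in limma, where 1039 genes passed as higher and 244 as lower, with 5 of the named genes among them. Over all 8 groups of the series with slide as a random block, the adjusted p of Foxq1 in limma was 0.0307. In that wider analysis 1 gene passed as higher and 2 as lower, and Foxq1 was the only one of them with a symbol. As no slide held both treatments, the block cannot separate slide from treatment. The promoter of Foxq1 from RefSeq (GRCr8, chr17:33124038-33124337, minus strand, 250 bases before to 50 after the start) is shown because this gene had the lower difference best separated from its spread, with 2 matches to the letters CCAAT on either strand in capitals.
Foxq1: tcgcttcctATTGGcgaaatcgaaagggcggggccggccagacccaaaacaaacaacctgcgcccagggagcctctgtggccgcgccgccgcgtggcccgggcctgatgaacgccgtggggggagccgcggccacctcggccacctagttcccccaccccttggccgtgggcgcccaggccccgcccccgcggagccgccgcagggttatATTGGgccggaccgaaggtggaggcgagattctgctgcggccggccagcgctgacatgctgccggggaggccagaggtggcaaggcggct

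Chrna5, which encodes a nicotinic acetylcholine receptor subunit, was the largest lower difference. It read 11.70, 10.19 and 9.63 with vehicle and 8.20, 8.11 and 9.05 with DHT. The groups did not overlap but both were wide, and the difference was -2.05 ± 0.56 (4.15-fold lower with DHT), and -1.74 against vehicle array 2. Sfrp4, which encodes a secreted inhibitor of Wnt signalling and rises in the corpus luteum, read 10.95, 10.46 and 10.01 with vehicle and 9.11, 9.98 and 8.88 with DHT. DHT array 2 was just under vehicle array 3, and the difference was -1.15 ± 0.38, and -1.14 against vehicle array 2. A second Sfrp4 probe gave -1.22 with groups that overlapped. Gsta2, a glutathione transferase gene, read 13.90, 14.23 and 13.72 with vehicle and 13.47, 12.15 and 12.87 with DHT, a difference of -1.12 ± 0.36, and -1.39 against vehicle array 2. Its second probe gave -1.36.

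Rab27b, which encodes a small GTPase that docks secretory vesicles, had levels of 8.16, 8.31 and 8.70 with vehicle and 6.98, 6.99 and 7.46 with DHT. Both groups were narrow and did not overlap, with a difference of -1.24 ± 0.25, and -1.16 against vehicle array 2. Slc37a1, a sugar phosphate exchanger gene, read 8.69, 8.35 and 8.25 with vehicle and 7.46, 7.64 and 6.97 with DHT (-1.07 ± 0.25, and -1.0 against vehicle array 2). The aldehyde oxidase gene Aox2 read 7.90, 7.45 and 7.96 with vehicle and 6.90, 6.10 and 6.56 with DHT (-1.25 ± 0.28, and -0.93 against vehicle array 2). Both genes had narrow groups. The gluconeogenic gene Fbp1 differed by -1.27 ± 0.40 (-1.09 against vehicle array 2) and the crystallin gene Cryba4 by -0.99 ± 0.35 (-0.98). Myh3, which encodes embryonic myosin heavy chain, read 9.10, 8.61 and 8.92 with vehicle and 7.90, 5.55 and 7.69 with DHT. Its difference of -1.83 ± 0.62 (-1.57 against vehicle array 2) came largely from DHT array 2 and was -1.05 without it. A second probe of Myh3 went the other way (0.65), and the second probe of Fbp1 gave -0.28 with groups that overlapped.

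The lower genes also held a leukocyte gene and a ciliary gene. Itgam, which encodes the integrin alpha M of neutrophils and macrophages, read 8.37, 8.77 and 8.19 with vehicle and 6.96, 7.79 and 7.21 with DHT, a difference of -1.12 ± 0.29, and -1.45 against vehicle array 2. The 16 leukocyte genes tested had a median difference of -0.23, with 12 of 16 below 0 (38.0% of all genes were). This median was -0.02, -0.06 and -0.56 against vehicle arrays 1, 2 and 3 and 0.04 without vehicle array 3, on which it therefore rested. The list had mean levels of 11.8 to 12.22 on the vehicle and 11.78 to 12.18 on the DHT arrays. S100a8, a neutrophil gene of the same list, lay higher with DHT on all 3 arrays (4.56, 7.08 and 4.84 against 7.61, 8.07 and 7.34). Ribc2, which encodes a protein of ciliary microtubules, read 10.08, 9.87 and 10.48 with vehicle and 7.53, 9.18 and 8.98 with DHT, a difference of -1.58 ± 0.46, and -1.30 against vehicle array 2. It was -1.05 without DHT array 1. All 6 genes of oviduct and ciliated epithelium had a negative difference (median -0.46) and were lowest on DHT array 1. The list's mean level was 10.24, 9.96 and 9.75 with vehicle and 8.85, 10.44 and 9.34 with DHT, so that its groups overlapped. The part of these cells in the Itgam and Ribc2 differences was not tested.

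Genes of cholesterol synthesis and uptake lay higher with DHT against each vehicle array, though none passed the test. All 22 tested members had a positive difference, against 62.0% of all genes, and their median difference was 0.59 against 0.09 for all genes. The median was 0.28 against vehicle array 1, 0.55 against vehicle array 2 and 0.72 against vehicle array 3, with 19, 20 and 22 of 22 members positive. Of all 23465 genes, 13792, 12806 and 13460 were positive against these arrays. In 18 of 22 members the mean of the DHT arrays lay above every single vehicle array, which was not counted over all genes. The groups did not overlap in 4 members (7.24% of all genes did so upwards) and in 12 all DHT arrays lay above vehicle array 2 (20.9% of all genes). The median was 0.60 with 75th-percentile scaling, 0.54 with rank scaling and 0.52 with cyclic loess, and it was 0.39 without vehicle array 3.

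The 4 members whose groups did not overlap stand at different steps of the pathway. Acat2, the thiolase that joins acetyl units, read 14.17, 13.97 and 13.97 with vehicle and 14.52, 14.79 and 14.57 with DHT. Both groups were narrow and the difference was 0.59 ± 0.19. Mvd, the decarboxylase at the end of the mevalonate steps, read 13.55, 13.28 and 13.41 with vehicle and 14.47, 13.61 and 14.78 with DHT, a difference of 0.87 ± 0.33. DHT array 2 was only just above the vehicle arrays there. Fdft1, squalene synthase, read 10.65, 10.26 and 10.04 with vehicle and 11.07, 10.66 and 11.27 with DHT (0.68 ± 0.26). Msmo1, a sterol methyl oxidase, read 16.85, 16.69 and 16.07 with vehicle and 17.39, 16.87 and 17.69 with DHT (0.78 ± 0.31). In both, DHT array 2 was barely above the highest vehicle array.

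DHT array 2 was the lowest of the DHT arrays at most of the other steps too. Hmgcs1, which makes hydroxymethylglutaryl-CoA, read 14.49, 14.66 and 14.32 with vehicle and 15.63, 14.45 and 16.05 with DHT, so DHT arrays 1 and 3 were above and DHT array 2 within the vehicle range. In 18 of the 22 members DHT array 2 was the lowest DHT array, wherever it lay beside the vehicle arrays. Acat2 was not among them, as DHT array 2 was its highest array (14.79). Sqle, squalene epoxidase, differed by 0.61 ± 0.31 (0.76 against vehicle array 2) and Fdps, which makes farnesyl diphosphate, by 0.54 ± 0.30 (0.95). Cyp51, the lanosterol demethylase, differed by 0.68 ± 0.36 (0.48 against vehicle array 2) and Insig1, the sterol-regulated retention protein, by 0.35 ± 0.28 (0.16). Without vehicle array 3 the differences were 0.32 for Cyp51 and 0.19 for Insig1. Srebf2, which encodes the transcription factor of the pathway, differed by 0.12 ± 0.20 and was -0.36 with 75th-percentile scaling. Idi1 and Hsd17b7 lay below vehicle array 2 (-0.37 and -0.22).

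The summed picture per array was less clear than the signs. The mean log2 level of the 22 members was 12.73, 12.52 and 12.17 on the vehicle arrays and 13.16, 12.58 and 13.3 on the DHT arrays. DHT arrays 1 and 3 were above all vehicle arrays, and DHT array 2 lay between vehicle arrays 1 and 2. Lists of steroid-making cells shared this order of the arrays in part. Like the cholesterol list, the thecal, granulosa, luteal and steroid synthesis lists were lowest among vehicle arrays on vehicle array 3. All of these but the luteal list were lowest among DHT arrays on DHT array 2. The granulosa list had a mean of 12.68, 12.89 and 12.42 with vehicle and 12.8, 12.24 and 12.81 with DHT. The thecal list had a mean of 11.11, 11.28 and 10.29 with vehicle and 11.15, 10.07 and 10.98 with DHT, lowest on DHT array 2. The luteal list had 12.39, 11.87 and 11.83 with vehicle and 11.94, 12.14 and 11.9 with DHT, and among DHT arrays it was highest on DHT array 2. The steroid synthesis list was lowest on vehicle array 3 (13.15) and, among DHT arrays, on DHT array 2 (13.47, against 13.78 and 13.77 on DHT arrays 1 and 3). The part of these cells in the cholesterol genes was not tested.

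Promoters of Mvd and Msmo1 from RefSeq (GRCr8, 250 bases before to 50 after each start) are shown because both genes separated the groups and belong to a list whose members all had the same sign. Mvd lies at chr19:67414925-67415224 on the minus strand and Msmo1 at chr16:29746863-29747162 on the plus strand, both written 5′ to 3′ along the gene. Capitals mark the letters CCAAT, the box bound by the factor NF-Y, on either strand, with 2 matches in Mvd and 3 in Msmo1.
Mvd: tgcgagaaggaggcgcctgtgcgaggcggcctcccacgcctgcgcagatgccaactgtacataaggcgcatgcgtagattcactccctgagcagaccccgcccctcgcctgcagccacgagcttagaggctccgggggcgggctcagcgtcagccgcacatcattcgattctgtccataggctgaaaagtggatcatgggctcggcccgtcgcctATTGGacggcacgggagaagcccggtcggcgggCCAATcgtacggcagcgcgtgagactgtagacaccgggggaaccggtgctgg
Msmo1: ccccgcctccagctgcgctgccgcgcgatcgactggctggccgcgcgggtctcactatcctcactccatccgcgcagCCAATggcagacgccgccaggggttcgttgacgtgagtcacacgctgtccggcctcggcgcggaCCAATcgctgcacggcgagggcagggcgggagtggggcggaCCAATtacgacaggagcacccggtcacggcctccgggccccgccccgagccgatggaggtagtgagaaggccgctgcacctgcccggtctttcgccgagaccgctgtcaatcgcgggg

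CCAAT was found in at least 1 promoter of 14 of 17 cholesterol genes matched by symbol, 9 of 11 cell cycle genes and 6 of 20 genes with the largest differences. It was in 37.5% of all 33469 promoters of the table. That share is over promoters and not over genes, some of which have more than 1 entry, so it is not a like measure. The sterol element consensus TCACNCCAC was in 1.12% of all promoters and the androgen response palindrome, AGAACA and TGTTCT with 3 bases between, in 0.0149%, searched on both strands, and in 0 promoters of these 3 sets. A match is a description of the letters in this window and no measure of binding.

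**Figure D3:**
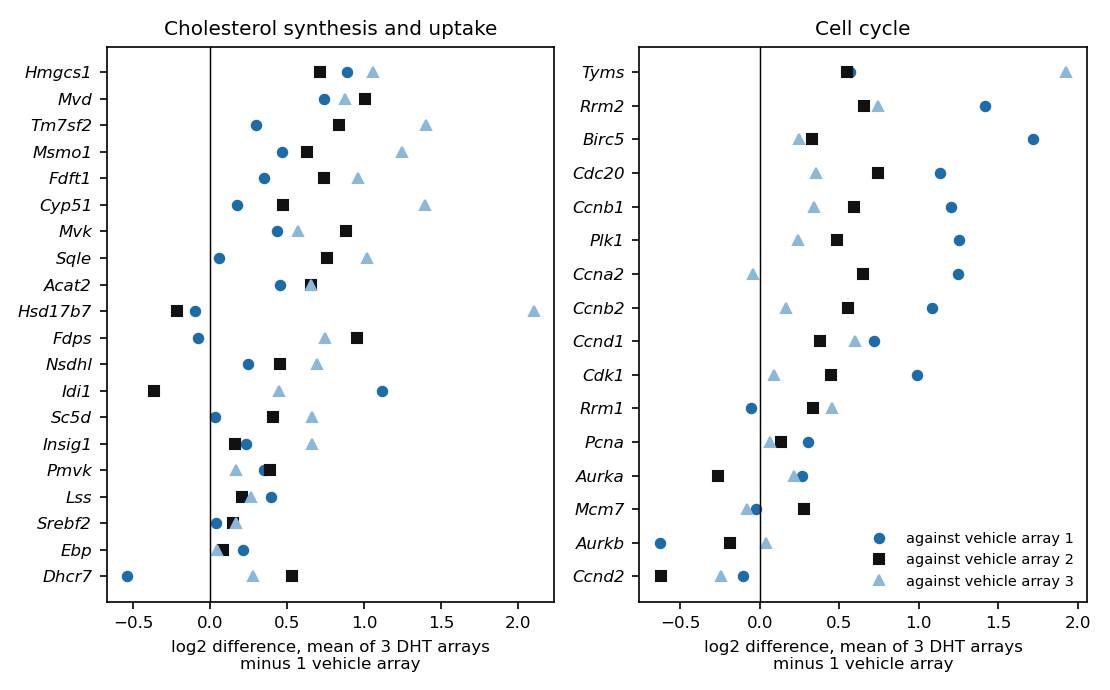
The log2 difference of the mean of 3 DHT arrays from each single vehicle array (x axis) for 20 of the 22 genes of cholesterol synthesis and uptake and 16 cell cycle genes (y axis). Most cholesterol genes shown lie right of 0 against all 3 vehicle arrays. Dhcr7, Fdps and Hsd17b7 lie left of 0 against vehicle array 1, and Idi1 and Hsd17b7 against vehicle array 2. Cell cycle genes lie farthest right against vehicle array 1 (median 0.86).

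Cell cycle genes lay higher with DHT in most members, by an amount that depended on the vehicle array. Of 16 tested members 14 had a positive difference (62.0% of all genes did), and 0 passed the test. The median was 0.59, and 0.86, 0.41 and 0.23 against vehicle arrays 1, 2 and 3, with 12, 13 and 13 members positive. Of all 23465 genes, 13792, 12806 and 13460 were positive against these arrays. Without vehicle array 1 the median of the list was 0.34. The groups did not overlap upwards in 4 members (7.24% of all genes) and downwards in 1 (3.17% of all genes). The mean level of the list was 11.11, 11.48 and 11.48 with vehicle and 11.88, 11.69 and 11.83 with DHT, so vehicle array 1 was lowest and the groups did not overlap.

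Ccnd1, the D-type cyclin of G1, read 12.61, 12.95 and 12.73 with vehicle and 13.34, 13.43 and 13.22 with DHT. Both groups were narrow, the difference was 0.57 ± 0.20, and a second probe gave 0.83 with groups that also did not overlap. Ccnd2, the D-type cyclin best known from granulosa cells, went the other way. It read 13.63, 14.15 and 13.77 with vehicle and 13.62, 13.57 and 13.39 with DHT, with DHT array 1 just below vehicle array 1, and differed by -0.32 ± 0.22. Rrm2 and Tyms, which make precursors of DNA, differed by 0.94 ± 0.29 and 1.02 ± 0.39. Tyms was 9.20, 9.22 and 7.84 with vehicle and 9.73, 9.80 and 9.78 with DHT, and it differed by 0.59 without vehicle array 3. Cdc20, an activator of mitotic exit, read 11.49, 11.88 and 12.27 with vehicle and 12.80, 12.48 and 12.59 with DHT (0.74 ± 0.26). The mitotic genes Ccnb1 (0.71 ± 0.32), Plk1 (0.66 ± 0.33) and Cdk1 (0.51 ± 0.30) overlapped between groups, because vehicle array 3 was within the DHT range, and without vehicle array 1 the differences of Plk1 and Cdk1 were 0.37 and 0.27. The kinases Aurka (0.07 ± 0.23) and Aurkb (-0.26 ± 0.30) had small differences. Beside these, granulosa markers had mean levels of 12.68, 12.89 and 12.42 with vehicle and 12.8, 12.24 and 12.81 with DHT, and their part in the cell cycle genes was not tested.

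In steroid synthesis the groups overlapped in all 15 tested genes (10.4% of all genes did not overlap). The median difference of the 15 genes was about 0 (-0.41, 0.17 and 0.34 against vehicle arrays 1, 2 and 3). Star read 17.82, 17.03 and 16.91 with vehicle and 17.15, 17.52 and 17.08 with DHT. Cyp11a1 read 17.23, 16.38 and 15.94 with vehicle and 16.63, 16.52 and 16.64 with DHT, with a difference of 0.08 ± 0.34. For both, vehicle array 1 was highest and the DHT arrays lay inside the vehicle range. Scarb1, the receptor for high-density lipoprotein, differed by 0.32 ± 0.30 (0.28 against vehicle array 2), and by 0.023 without vehicle array 3.

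Enzyme and receptor genes known to follow gonadotropins varied widely within both groups. Cyp17a1, the thecal enzyme that makes androgens, read 12.50, 13.42 and 8.99 with vehicle and 11.45, 8.81 and 11.11 with DHT. Its difference was -1.18 ± 1.24, and -2.97 against vehicle array 2, which was its highest array. Without vehicle array 2 it was -0.29. Cyp19a1, aromatase, read 10.45, 9.85 and 6.33 with vehicle and 10.02, 8.48 and 10.60 with DHT (0.82 ± 1.12). Lhcgr, the receptor for luteinizing hormone, read 11.12, 9.87 and 8.0 with vehicle and 11.77, 8.22 and 11.50 with DHT (0.83 ± 1.14). Vehicle array 3 and DHT array 2 were the lowest array of their group for all 3 genes.

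The groups overlapped in each of 11 tested receptor genes (10.4% of all genes did not overlap). The largest receptor difference was that of the insulin receptor gene Insr, at 1.21 ± 0.55. Insr read 6.4, 7.89 and 5.62 with vehicle and 7.91, 7.75 and 7.87 with DHT. Vehicle array 2 lay within the DHT range, and the difference from it was -0.051. Fshr, the receptor for follicle-stimulating hormone, differed by -0.19 ± 0.36, Inha by -0.16 ± 0.20 and Amh, a product of growing follicles, by 0.01 ± 0.30. Across 11 granulosa genes the median difference was -0.11 and across 8 thecal genes -0.18, with 0 separated in either list (10.4% of all genes). Gdf9, an oocyte growth factor, differed by -0.38 ± 0.40, and by -0.054 without vehicle array 1. Lhx8, an oocyte transcription factor, was lower on all DHT arrays (8.65, 7.21 and 8.45 against 6.87, 7.03 and 6.82), by -1.20 ± 0.39, but by -0.30 from vehicle array 2. In the luteal list, Vegfa, the angiogenic growth factor, separated the groups upwards beside the lower Sfrp4. Vegfa read 11.92, 11.61 and 11.59 with vehicle and 12.23, 12.15 and 12.30 with DHT, and differed by 0.52 ± 0.20, with 0.41 on a second probe.

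**Figure D4:**
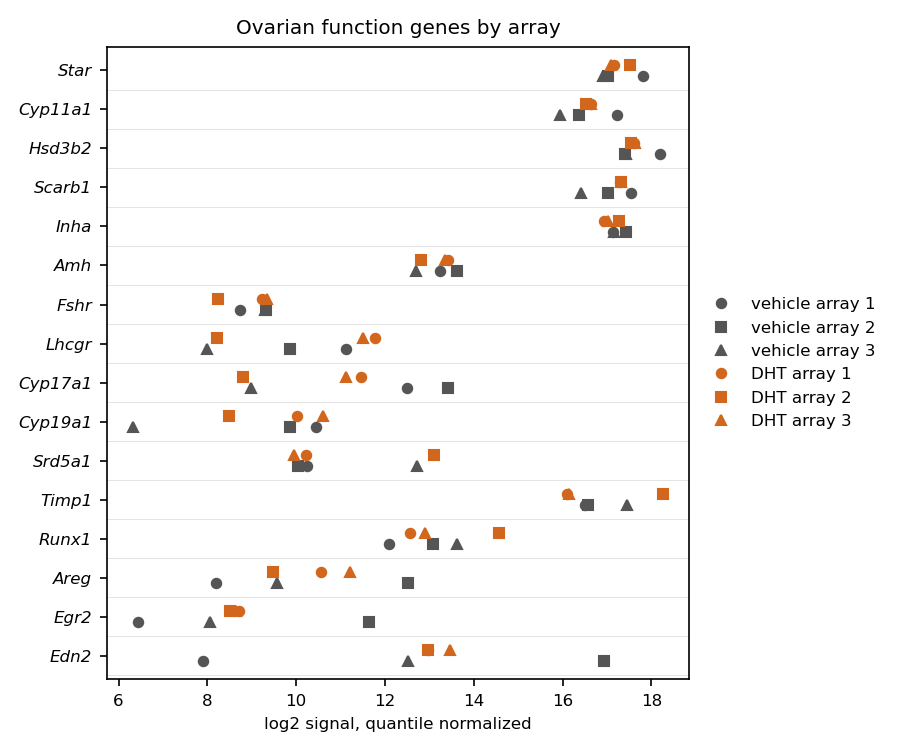
The quantile-normalized log2 signal (x axis) of genes of steroid synthesis, gonadotropin response and ovulation (y axis) on each of 3 vehicle arrays (grey) and 3 DHT arrays (orange). Star spans 16.91 to 17.82 and Cyp11a1 15.94 to 17.23, whereas Lhcgr, Cyp17a1 and Cyp19a1 are low on vehicle array 3 and DHT array 2, and Edn2 ranges from 7.91 on vehicle array 1 to 16.93 on vehicle array 2.

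Genes known to respond to androgens in other tissues were divided in sign. Of 17 tested members of the androgen response list 11 had a positive difference (62.0% of all genes did), with a median of 0.17, which was -0.05 without vehicle array 3 and -0.23 against vehicle array 1. In 1 of them, the kinase gene Camkk2, the groups were separated upwards (7.24% of all genes). Fkbp5, a co-chaperone of steroid receptors known to respond to androgens, read 14.36, 13.95 and 13.45 with vehicle and 14.20, 13.86 and 14.23 with DHT. The groups overlapped and the difference was 0.18 ± 0.28, while a second, dimmer probe gave 0.55 with groups that did not overlap. Tsc22d3 (0.23 ± 0.23), Sgk1 (0.19 ± 0.39) and Igf1 (0.14 ± 0.40) also overlapped. Zbtb16, a zinc-finger gene induced by several steroid receptors, was not well above background on all arrays and was not tested. Its 2 probes went opposite ways, with 7.06, 6.4 and 7.10 against 5.09, 5.51 and 3.95 on the first and 5.48, 5.21 and 5.41 against 6.32, 6.37 and 6.71 on the second. The ovulatory gene Ptgs2 was not tested for the same reason, and no probe was matched to the luteal gene Akr1c18.

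Some lists changed sign with the vehicle array used. The 20 immediate early genes, which respond within minutes to many stimuli, had a median of -0.10 against the vehicle group, but 0.34, -0.66 and 0.15 against vehicle arrays 1, 2 and 3, with 15, 0 and 12 members positive. The 9 adipocyte genes had medians of 0.39, -0.65 and -0.02, with 9, 0 and 4 positive. Vehicle array 2 was the highest of the 6 arrays in 13 of the 20 immediate early genes and in 8 of the 9 adipocyte genes. The 4 smooth muscle genes had medians of -0.45, 0.65 and -0.79. Erythrocyte genes, a sign of blood content, had a median of 0.56 over 4 genes, and 0.88, 0.30 and 0.26 against vehicle arrays 1, 2 and 3, with 4, 4 and 2 positive. Their mean level was 9.61, 10.28 and 10.12 with vehicle and 10.48 to 10.83 with DHT, without overlap. By gene, only Slc4a1 (0.83) separated the groups. Hbb (0.29), Alas2 (0.15) and the dim Hemgn (1.14, but -0.3 with 75th-percentile scaling) overlapped. The globin gene Hbb-b1 had no value on DHT array 2 and was not tested. It read 17.18, 17.17 and 17.18 with vehicle and 17.34 and 17.13 on DHT arrays 1 and 3. The part of erythrocytes in other differences was not tested. A difference from vehicle array 2 alone in the immediate early, adipocyte and smooth muscle lists is therefore a difference of that sample from the other vehicle samples as well.

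**Figure D5:**
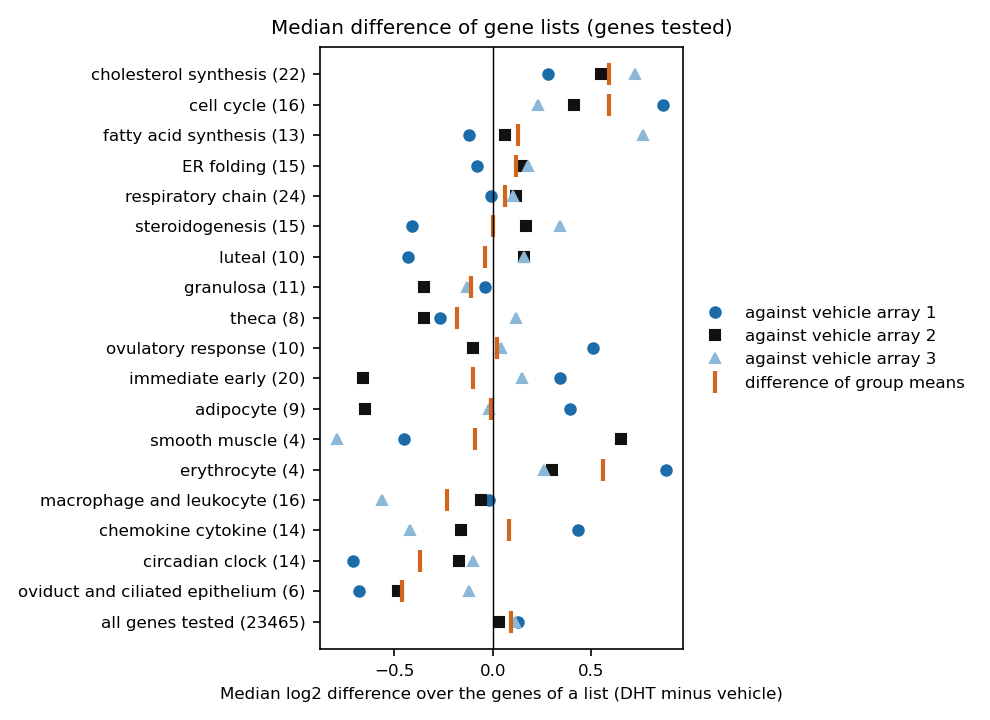
The median log2 difference (x axis) over the tested genes of each list shown (y axis, number of genes in brackets), as the difference of group means (orange bar) and as the mean of the DHT arrays minus vehicle array 1, 2 or 3. Cholesterol synthesis, cell cycle and erythrocyte genes are to the right of 0 against all 3 vehicle arrays, and immediate early, adipocyte and smooth muscle genes lie on both sides.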

How the data were processed

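Each deposited file held linear spot intensity values of 1 array. Per the file headers they came from Agilent Feature Extraction 10.5.1.1, while the submitters' processing notes give 10.1 and also name limma. The intensity used, the processed signal, was background-subtracted by the scanner software, per the file headers, and carries no scaling across arrays. An array had 42429 spots, of which 1417 were controls. Of 41012 probes, 10813 carried an accession that matched a symbol in RefSeq's table of the GRCr8 assembly, used for names, and the other 30199 are counted but not named. Signals were converted to log2, spots marked as outliers were left out (1 to 180 an array), and the 6 ovary arrays were quantile normalized. No spot was saturated.

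Genes were tested where well above background on all 6 arrays (25177 probes, of which 24929 had a value on all arrays, giving 23465 genes). The probe with the highest mean represented a gene. The test was limma 3.58.1 in R 4.3.3 (lmFit, eBayes; Benjamini-Hochberg, threshold 0.05), and errors of differences are its standard errors. With 3 arrays a group, an exact permutation test of a single gene cannot go below 0.1. The number of arrays limits the precision. The code was tested on simulated data.

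Genes named are the 12 largest in each direction by the smaller of the difference from the vehicle group and from vehicle array 2, among those with separated groups and a sign kept under rank and 75th-percentile scaling; a fixed set of genes given whatever their value, some of which are not reported here; and members of the lists described. Members and lists were chosen with earlier results of these data known, and lists are described by counts and medians without a test. Alternatives were 75th-percentile scaling, rank scaling, cyclic loess, normexp (offset 50, on the median signal and median local background), other filters, the mean over probes, arrays left out, array weights, a replicate block, and a limma analysis of 23 arrays of all 8 groups with slide as a random block (correlation 0.0939). Differences from vehicle arrays 1 and 3 alone were added after seeing the data. The other tissues were otherwise not used here, and 1 forebrain array excluded by the submitters was left out.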

Additional observations from a re-analysis of the deposited data

How the results depend on the processing

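The count of genes passing in limma stayed at 0 under 75th-percentile, rank and cyclic loess scaling, normexp, no filter, the mean over probes and array weights. It was also 0 without vehicle arrays 1 and 3 together, where 1 vehicle array is left and its spread is assumed to be that of the DHT arrays, so this count says nothing about stability. A filter at 3 or more arrays gave 0 higher and 13 lower, and all 8 groups with slide as a random block gave 1 higher and 2 lower. Leaving out 1 array at a time gave 0 to 1039 higher and 0 to 244 lower, the upper ends without vehicle array 2. The replicate block gave 0 in both directions (lowest adjusted p 0.894 in limma). Deviations from the group means correlated at 0.0566, -0.288 and -0.133 between arrays sharing a number, and at -0.213 to 0.262 between other arrays. Deviations within a group sum to 0, which ties these correlations to each other. They therefore show no pairing by number but cannot exclude it.

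Genes separated upwards (1698, 7.24%) and downwards (744, 3.17%) were 784 and 1803 with 75th-percentile scaling, and 6585 and 5492 without vehicle arrays 1 and 3. Above background on at least 3 arrays they were 2657 and 1478 of 30999 genes (8.57% and 4.77%). With no filter they were 3176 and 2727 of 38784 genes (8.19% and 7.03%), so these counts rose in part because more genes were tested. Genes separated upwards and downwards were 1083 and 1039 with rank scaling and 1099 and 1103 with cyclic loess, about even. With 1 array left out they were 2129 to 5691 and 1004 to 2476, since fewer arrays have to be separated. Genes at least 2-fold above and below vehicle array 2 (149 and 226) were 711 and 775 with rank scaling and 227 upwards with the 4 arrays normalized alone. They were 763 and 919 of the 30999 genes above background on at least 3 arrays. Apart from the number of genes tested, the cause of these shifts was not tested.

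The 24 genes with the largest differences kept their sign under every alternative, which their choice by separated groups and a sign kept under 2 scalings largely fixed. Their sizes were not kept. With 75th-percentile scaling some dim higher genes fell close to 0, such as Mob4 (0.16), Reg3g (0.16), Tuba8 (0.2) and Cenpu (0.32). Some dim lower genes grew, such as Aox2 (-2.14) and Rab27b (-1.91). Signs turned for other genes. Star was 0.19 with 75th-percentile scaling, 0.062 with normexp and 0.23 without vehicle arrays 1 and 3. Srebf2 was -0.36 with 75th-percentile scaling and -0.0042 with cyclic loess. Array weights turned Fshr to 0.13 and Igf1 to -0.10, and the mean over probes turned Tsc22d3 to -0.017. Amh was -0.0005 with rank scaling, -0.01 with cyclic loess, -0.0015 with normexp and -0.43 without vehicle arrays 1 and 3, which also gave Cyp19a1 -0.19, Idi1 -0.36, Hsd17b7 -0.26 and Aurka -0.28. With 1 array left out the ranges were Star -0.17 to 0.28, Cyp11a1 -0.20 to 0.45, Cyp19a1 -0.48 to 1.70, Fshr -0.39 to 0.16, Lhcgr -0.033 to 1.95, Fkbp5 -0.055 to 0.40, Sgk1 -0.17 to 0.57, Igf1 -0.17 to 0.46, Amh -0.23 to 0.23, Hsd17b7 -0.18 to 1.39 and Aurka -0.03 to 0.24.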

Other observations

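Single ovary arrays differed from each other in genes of the ovulatory response more than the groups did. These genes were chosen after their values were seen. Edn2, which encodes endothelin-2, a peptide of granulosa cells around ovulation, read 7.91, 16.93 and 12.51 on vehicle arrays 1, 2 and 3 and 12.96, 12.97 and 13.46 on the DHT arrays. Vehicle arrays held both the highest and the lowest level, and the DHT arrays lay between them. Areg, an epidermal growth factor-like ligand induced by luteinizing hormone, read 8.20, 12.51 and 9.57 with vehicle and 10.55, 9.48 and 11.20 with DHT. Egr2, an immediate early transcription factor, read 6.44, 11.63 and 8.06 with vehicle and 8.72, 8.50 and 8.64 with DHT. In all 3 genes vehicle array 2 was the highest of the 6 arrays and vehicle array 1 the lowest.

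A second set of genes set vehicle array 3 and DHT array 2 apart from the other 4 arrays. Srd5a1, which encodes the enzyme that reduces testosterone to DHT, read 10.24, 10.03 and 12.71 with vehicle and 10.21, 13.11 and 9.96 with DHT. Timp1, a metalloproteinase inhibitor made by periovulatory granulosa and luteal cells, read 16.50, 16.57 and 17.45 with vehicle and 16.09, 18.25 and 16.15 with DHT. Des, a smooth muscle gene, read 13.78, 12.88 and 15.03 with vehicle and 12.80, 15.30 and 13.60 with DHT. Of the other smooth muscle genes, Cnn1 had the same highest arrays (10.53, 9.23 and 11.22 with vehicle, 8.64, 11.29 and 10.04 with DHT). Actg2 was lowest of the vehicle arrays on vehicle array 3 (15.80, 15.35 and 15.04). Tagln was higher on vehicle array 1 (15.00) than on vehicle array 3 (14.84), so not every member showed this pattern. The mean level of the smooth muscle list was 13.78, 12.83 and 14.03 with vehicle and 12.44, 14.52 and 13.32 with DHT, highest on vehicle array 3 and DHT array 2. Srd5a1, Timp1 and Des were chosen after their values were seen. These 3 genes were highest on the arrays on which Cyp17a1, Cyp19a1 and Lhcgr were lowest within their group. DHT array 2 was also the lowest of the 6 arrays in 9 of 14 tested circadian clock genes, such as Dbp (13.57, 13.07 and 14.02 with vehicle, 13.44, 11.87 and 13.27 with DHT).

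Genes of fatty acid synthesis lay on both sides. The fatty acid desaturase genes Fads1 (11.97, 11.40 and 11.76 with vehicle, 12.04, 12.59 and 12.01 with DHT) and Fads2 (8.56, 8.29 and 7.79 with vehicle, 9.0, 9.14 and 8.73 with DHT) were higher on every DHT array. Gpam, which starts glycerolipid synthesis, was lower on every DHT array (9.67, 10.15 and 9.90 with vehicle, 9.39, 9.22 and 9.34 with DHT). Over the 13 tested genes of fatty acid synthesis the median difference was 0.13, and -0.12, 0.06 and 0.76 against vehicle arrays 1, 2 and 3.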
